A study of Mus musculus with 8 samples.

Results

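Of the 54532 genes in the deposited tables, 9 were taken by symbol: the 5 thrombospondins Thbs1, Thbs2, Thbs3, Thbs4 and Comp, and 4 of their receptors outside the integrins, Lrp1, Cd47, Cd36 and Cacna2d1. All 9 matched 1 row each. They were followed through 8 libraries of poly(A) RNA from C57BL/6 mouse cardiac fibroblasts at passage 2. In 4 libraries the cells had received the plasmid pAAV.CMV.SV40.THBS4-HA.SV40(polyA), which carries murine Thbs4 with an HA tag and is called the TSP-4 plasmid here. In the other 4 they had received the empty plasmid pAAV-CA. All cells were then held for 12 h in standard medium free of antibiotics and for 24 h without serum. The plasmid names give different backbones, so an effect of the Thbs4 insert and an effect of the backbone cannot be told apart. Each group has libraries lettered A, B, C and D. What a letter marks is not in the labels, nor whether the libraries of a group stem from different animals or dishes. All p-values below are therefore relative to the scatter of these libraries, which may be technical.

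Thrombospondins are secreted calcium-binding glycoproteins of the extracellular matrix that act more on cells than on the strength of the matrix. TSP-1 and TSP-2, from Thbs1 and Thbs2, form trimers and carry the type 1 repeats to which CD36 binds. TSP-3, TSP-4 and cartilage oligomeric matrix protein, from Thbs3, Thbs4 and Comp, form pentamers and lack these repeats. The carboxy-terminal part is the most conserved in the family and in TSP-1 holds the region described to bind CD47. The voltage-gated calcium channel subunit alpha2delta-1, from Cacna2d1, was described as a neuronal receptor for the EGF-like repeats. LRP1 is an endocytic receptor that takes up TSP-1 and TSP-2 together with heparan sulfate proteoglycans. In the heart TSP-4 is known to rise under pressure load.

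Total counts per library ran from 17123735 to 22530947, with the highest value in library A of each group, and mitochondrial genes held 0.857% to 1.00% of counts. All 8 fibroblast markers were detected in every library, from Col1a1 at 4551 to 6142 CPM (counts relative to library size after TMM scaling) down to Lum at 1.57 to 11.8 CPM. Summed, they reached 9169 to 13992 CPM with the TSP-4 plasmid and 9014 to 14332 CPM with the empty plasmid. Transcripts of other cell types were present: 9 of 9 macrophage markers, with a sum of 265 to 1465 CPM against 296 to 1197 CPM, and 4 of 4 mesothelial markers, with 259 to 561 CPM against 248 to 546 CPM. Endothelial markers summed to 46.7 to 67.8 CPM against 47.8 to 81.5 CPM, and those of pericytes and smooth muscle to 18.2 to 22.8 CPM against 18.9 to 45.7 CPM. Cardiomyocyte markers summed to 13.4 to 17.8 CPM against 12.0 to 16.9 CPM, nearly all from Tnnt2, with Myh6 at no more than 0.118 CPM. Platelet markers summed to 8.74 to 20.3 CPM against 8.77 to 21.4 CPM, with Gp1bb at 0 in all 8 libraries. Adipocyte markers summed to 3.88 to 9.74 CPM against 5.31 to 9.51 CPM, with Adipoq at 0 in 6 of 8 libraries.

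The thrombospondin genes share stretches of sequence, which matters because a library with very many Thbs4 reads could send some of them to a relative. On the principal transcripts of GENCODE M21 (mm10 coordinates), the longest run common to Thbs4 and Comp lies in the coding part of both and is 26 bases long. Thbs1 and Thbs2 share a coding run of the same length. The pairs are shown because they are the longest exact matches in the family.
Thbs4 and Comp: cagaccatgaacagtgaccctggcct
Thbs1 and Thbs2: ggagaccgctgtgacaactgccccta
In the best-matching window of 50 bases, Thbs4 differed from Comp and from Thbs3 by 5 bases, from Thbs1 by 8 and from Thbs2 by 12. Neither the read length nor the handling of reads that fit more than 1 gene is given in the sources used here, so how many Thbs4 reads were counted under Comp or Thbs3 was not tested.

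Promoter windows of 300 bases around the start in RefSeq (GRCm38.p6), most of them upstream of it, were found for 7 of the 9 genes, with an entry for neither Thbs1 nor Comp. Those of Cacna2d1 and Lrp1 are printed because these genes moved together across the libraries, and that of Cd36 because its level varied most among the receptors. The Cd36 window lies inside the gene, whose annotated 5' end is at 17888801, so other starts may exist. Cd47 windows also lie inside their gene, which begins at 49800533. Counts are per gene and not tied to a start. They were searched on both strands for 5 motifs. The TATA box was read as TATAAA. The GC box was read as GGGCGG, and the CCAAT box by the letters of its name. The AP-1 site was read as TGANTCA. The E-box was read as CACGTG. Capitals mark the matches; a pair of the GC boxes in Cacna2d1 share 1 base, and no other matches in the printed windows overlap.
Cacna2d1, chr5:15934441-15934740, plus strand: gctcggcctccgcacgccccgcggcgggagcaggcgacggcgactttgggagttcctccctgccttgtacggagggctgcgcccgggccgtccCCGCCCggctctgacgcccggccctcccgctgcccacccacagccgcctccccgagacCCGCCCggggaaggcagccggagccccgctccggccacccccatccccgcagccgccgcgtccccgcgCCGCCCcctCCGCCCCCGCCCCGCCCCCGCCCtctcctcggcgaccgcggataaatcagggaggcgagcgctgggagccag
Lrp1, chr10:127621099-127621398, minus strand: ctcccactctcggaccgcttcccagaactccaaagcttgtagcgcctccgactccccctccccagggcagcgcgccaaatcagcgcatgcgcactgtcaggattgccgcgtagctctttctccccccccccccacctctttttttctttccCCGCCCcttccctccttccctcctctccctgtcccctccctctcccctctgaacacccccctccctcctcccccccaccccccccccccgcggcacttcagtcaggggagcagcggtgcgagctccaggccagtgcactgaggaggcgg
Cd36, chr5:17835847-17836146, minus strand: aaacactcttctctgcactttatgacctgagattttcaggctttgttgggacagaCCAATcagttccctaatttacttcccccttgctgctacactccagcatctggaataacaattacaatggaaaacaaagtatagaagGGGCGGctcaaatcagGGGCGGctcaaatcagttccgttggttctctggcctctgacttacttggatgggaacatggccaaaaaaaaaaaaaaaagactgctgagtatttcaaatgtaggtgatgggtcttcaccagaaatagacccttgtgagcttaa
The Cacna2d1 window had 80.0% G and C, 42 CpG and 7 GC boxes, and that of Lrp1 67.7%, 16 CpG and 1 GC box. The Cd36 window had 43.0% G and C, 3 CpG, 2 GC boxes and 1 CCAAT box. Over all 32851 windows of the table the median was 52.7% G and C with 7 CpG, 35.7% held a GC box and 37.4% a CCAAT box. Of the other windows, Thbs2 alone held a TATA box, present in 13.6% of all windows, beside 2 CCAAT boxes. Thbs4 and Cd47 each held 3 GC boxes, and Thbs3 held 1 with a CCAAT box. No member's window held the AP-1 or E-box letters, found in 7.81% and 7.15% of all windows. These matches describe letters in a window and are not sites of binding.

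Thbs4 (ENSMUSG00000021702, chromosome 13, 92751590 to 92794818, minus strand) is the gene on the plasmid, so its level is a check of the labels. Its reads with the TSP-4 plasmid may come from the plasmid or the chromosome. Libraries A to D held 523, 444, 657 and 539 FPKM (fragments scaled to exon length and library total, the authors' values) with the TSP-4 plasmid, against 0.0286, 0.195, 0.122 and 0.0474 FPKM with the empty plasmid. All 4 TSP-4 plasmid libraries therefore lay far above all 4 others, in which the gene had 2 to 11 counts. On the log2 scale the plasmids differed by 12.45 (SE 0.44, 95% interval 11.44 to 13.45), with an adjusted p of 1.93e-06 by edgeR's quasi-likelihood test. It was the single gene among 14723 that passed at 0.05, which makes the background 0.00679% called higher and 0% called lower. Of the 9 members, 1 was called higher and 0 lower. At an unadjusted p under 0.05 the test gave 96 genes higher and 139 lower, none of them one of the other 8 members. DESeq2 called 1 gene higher and 0 lower. Without overlap between the groups were 1.51% of all genes tested, and among the members Thbs4 only.

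Thbs1 (ENSMUSG00000040152, chromosome 2, 118111876 to 118127133, plus strand) encodes TSP-1, best known as an inhibitor of new vessels and an activator of latent TGF-beta. It was the most abundant member per length in every library, at 924, 1119, 1113 and 859 FPKM in TSP-4 plasmid libraries A to D and 926, 1086, 1142 and 847 FPKM in the empty plasmid libraries. By FPKM it ranked 15th to 25th of all genes. In both groups B and C were the higher libraries and A and D the lower ones. The group means were 1004 ± 133 and 1000 ± 137 FPKM (SD, n = 4 each), with a log2 fold change of -0.00 (95% interval -0.29 to 0.29). As a ratio the interval runs from 0.819 to 1.22 times the empty plasmid level.

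Thbs2 (ENSMUSG00000023885, chromosome 17, 14665500 to 14694235, minus strand), the gene of the other trimeric thrombospondin, stood at 10.8, 21.6, 15.0 and 7.56 FPKM with the TSP-4 plasmid and 5.20, 22.7, 11.3 and 8.02 FPKM with the empty plasmid. Library B was the highest in both groups, and the largest gap between plasmids was in letter A. Its log2 fold change of 0.22 had a 95% interval of -0.92 to 1.35 and did not pass edgeR's test (adjusted p = 1.00). The interval is wide and holds ratios from 0.529 to 2.55.

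Thbs3 (ENSMUSG00000028047, chromosome 3, 89215180 to 89226837, plus strand) encodes a pentameric thrombospondin and was low, at 0.844, 1.41, 0.844 and 0.985 FPKM with the TSP-4 plasmid and 0.829, 0.979, 0.751 and 0.829 FPKM with the empty plasmid. In all 4 letters the TSP-4 plasmid library was the higher, while the groups overlapped. The share of all genes tested that were higher in all 4 letters was not counted, here and for the members below. The fitted difference was 0.26 on the log2 scale (95% interval -0.17 to 0.70, adjusted p = 1.00 by edgeR). Mtx1 lies over the whole of Thbs3 on the opposite strand and had 509 to 692 counts where Thbs3 had 69 to 120. Without a stated strand setting, reads from places where exons of both genes overlap cannot be told apart. How far the exons overlap was not examined, so the Thbs3 values are uncertain.

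Comp (ENSMUSG00000031849, chromosome 8, 70373558 to 70382066, plus strand), best known from cartilage and tendon, was the lowest thrombospondin with the TSP-4 plasmid. It stood at 0.503, 0.401, 0.576 and 0.377 FPKM, from 33, 21, 29 and 20 counts, against 0.206, 0.373, 0.475 and 0.0875 FPKM, from 13, 19, 28 and 5 counts. All 4 letters were higher with the TSP-4 plasmid, though the lowest TSP-4 plasmid libraries lay within the range of the empty plasmid. Fitted over all 8 libraries, the log2 fold change was 0.70 (95% interval -0.27 to 1.67, adjusted p = 1.00 by edgeR). The 4 TSP-4 plasmid libraries together had 103 Comp counts beside 132122 of Thbs4, and the empty plasmid libraries 65 beside 24. The part of the shared stretches in these counts was not tested.

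**Figure D1:**
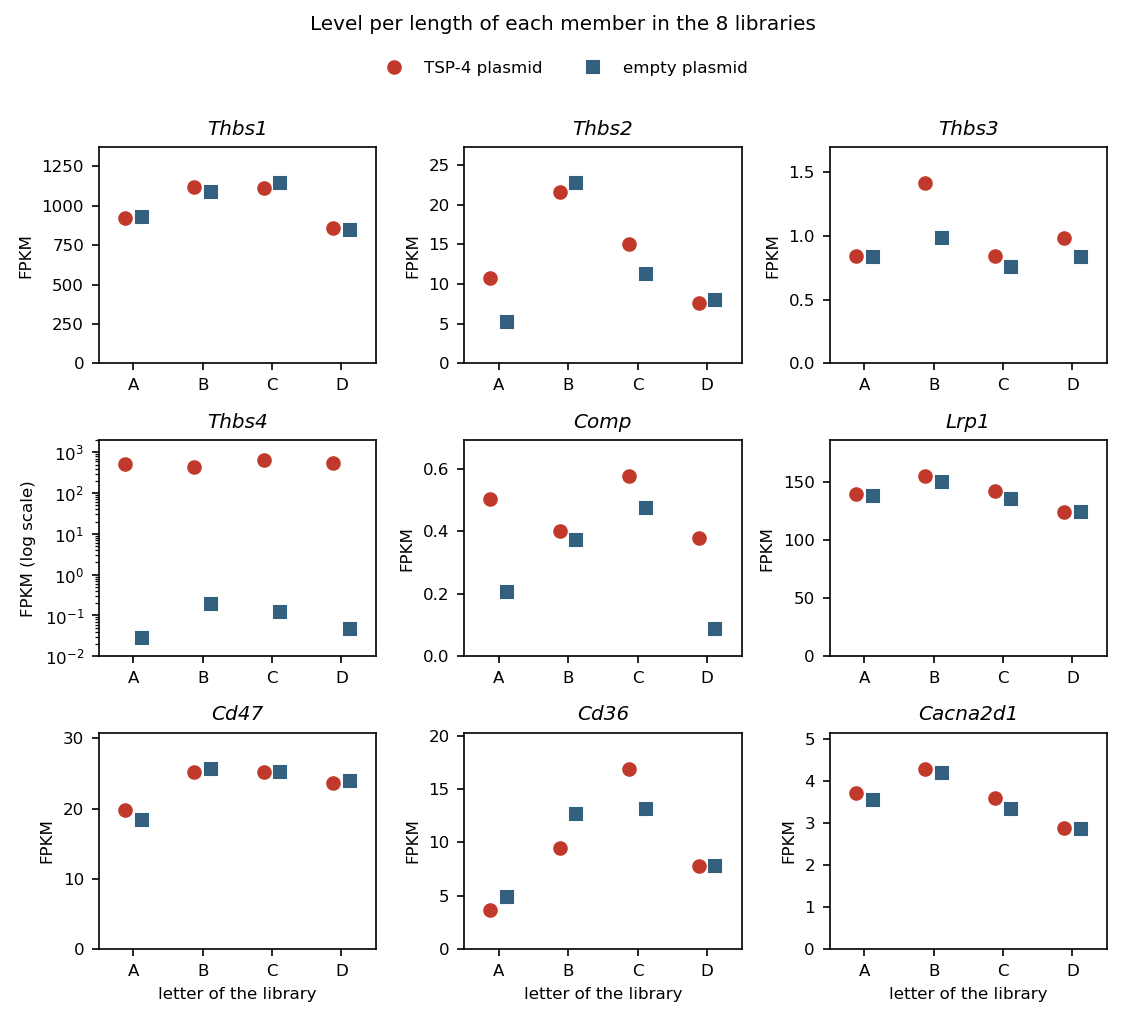
Level of each of the 9 genes in FPKM (vertical axis, on a log scale for Thbs4 and from 0 for the others) in the 4 lettered libraries (horizontal axis) of the TSP-4 plasmid (circles) and the empty plasmid (squares), 1 point per library. Thbs4 lies between 444 and 657 FPKM with its plasmid and at most at 0.195 FPKM without it, while the points of the other 8 genes overlap between plasmids.

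The make-up of thrombospondin transcripts per length differed between the plasmids through Thbs4. With the empty plasmid, Thbs1 held 97.8% to 99.3% of the summed FPKM of the 5 genes, Thbs2 0.558% to 2.04% and Thbs4 at most 0.0176%. With the TSP-4 plasmid, Thbs4 held 35.9%, 28.0%, 36.8% and 38.3% in libraries A to D and Thbs1 61.1% to 70.5%. Even so, Thbs4 reached only 0.397 to 0.627 times the FPKM of Thbs1 in the same library. The family sum was 1559 ± 169 FPKM in TSP-4 plasmid libraries and 1013 ± 142 FPKM in empty plasmid libraries (SD, n = 4), and their ratio of 1.54 lay between 1.43 and 1.64 in the 4 letters. Without Thbs4 the ratio was 1.01, and the TSP-4 plasmid sums lay between 867 and 1143 FPKM against 856 and 1155 FPKM. These shares are given as a description, with no test, since the TSP-4 plasmid carries Thbs4.

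**Figure D2:**
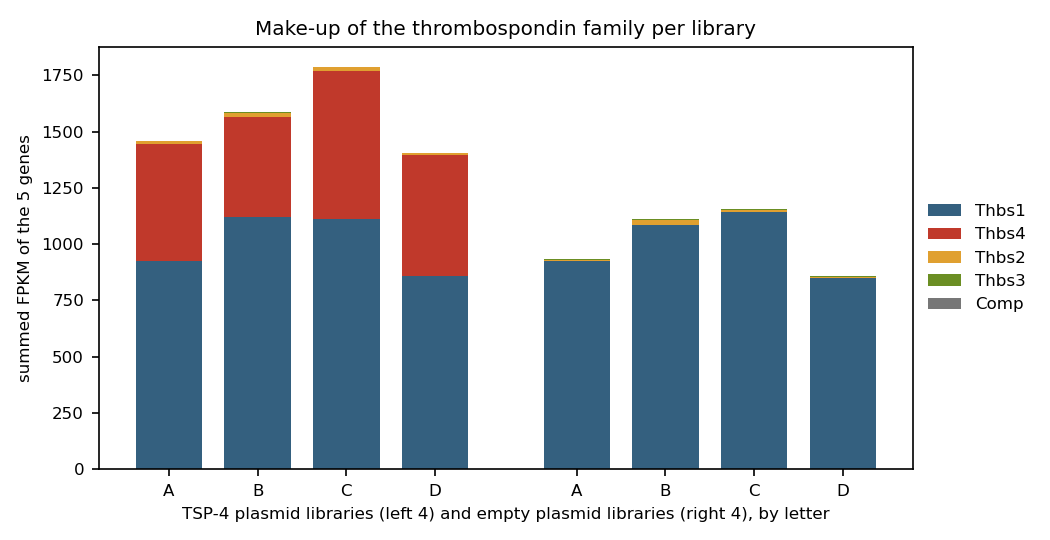
Stacked FPKM (vertical axis, from 0) of the 5 thrombospondin genes in each library (horizontal axis, TSP-4 plasmid left, empty plasmid right). The Thbs1 segment is nearly the same height in libraries of the same letter, and the Thbs4 segment adds 444 to 657 FPKM with the TSP-4 plasmid only.

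Among the receptors, Lrp1 (ENSMUSG00000040249, chromosome 10, 127538161 to 127621148, minus strand) was the most abundant per length. It stood at 140, 155, 142 and 124 FPKM in TSP-4 plasmid libraries A to D and 138, 150, 136 and 125 FPKM in the empty plasmid libraries, ranking 258th to 374th of all genes. In both groups B was the highest library and D the lowest. Between plasmids the log2 fold change was 0.03 (95% interval -0.17 to 0.22), which allows ratios from 0.891 to 1.17.

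Cd47 (ENSMUSG00000055447, chromosome 16, 49800533 to 49915010, plus strand) encodes the membrane protein that binds TSP-1 and, on other cells, SIRP-alpha. Its levels were 19.8, 25.2, 25.2 and 23.6 FPKM with the TSP-4 plasmid and 18.3, 25.7, 25.2 and 23.9 FPKM with the empty plasmid. Letter A was the low one in both groups. Its log2 fold change was 0.01 (95% interval -0.27 to 0.28), which allows ratios from 0.830 to 1.22.

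Cd36 (ENSMUSG00000002944, chromosome 5, 17781690 to 17888801, minus strand) encodes a scavenger receptor and fatty acid transporter that macrophages, platelets, adipocytes and capillary endothelium carry. It varied more than any other receptor, at 3.64, 9.52, 16.9 and 7.82 FPKM with the TSP-4 plasmid and 4.90, 12.6, 13.1 and 7.78 FPKM with the empty plasmid. Letter A was lowest and letter C highest in both groups. Its log2 fold change was -0.03, and the 95% interval of -1.15 to 1.08 allows ratios from 0.452 to 2.12.

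The macrophage markers moved with Cd36 from library to library. Their sum was 265, 667, 1465 and 669 CPM in TSP-4 plasmid libraries A to D and 296, 878, 1197 and 553 CPM in the empty plasmid libraries, a 5.54-fold range. Over the same libraries Cd36 in CPM had a 4.66-fold range, and Cd36 as a share of the macrophage sum stayed between 3.98% and 5.93%. Lyz2, the lysozyme of macrophages, made up most of the sum, at 174 to 1018 CPM, and Adgre1, which encodes F4/80, ran from 20.6 to 126 CPM. Across the 8 libraries log2 Cd36 and the log2 macrophage sum had a Pearson's r of 0.982, a description over libraries that share letters. The 3 genes most like Cd36 by r of log2 CPM, among 9320 genes of at least 10 CPM, were Anpep (0.996), Adam8 (0.996) and Slc15a3 (0.996). Of the adipocyte markers Fabp4 ran from 3.79 to 9.68 CPM, with letter C highest in both groups, and Plin1 reached at most 0.235 CPM. Pf4, counted as a platelet marker, ran from 5.96 to 18.1 CPM with letter A lowest and C highest. The endothelial sum had another order, with letter B lowest in both groups. Of its genes Pecam1, Tie1 and Vwf were highest in letter C in both groups, and Cdh5, Kdr, Tek and Emcn were not. The part of macrophage RNA in the Cd36 values was not tested. In bulk RNA, fewer cells of a type and less RNA per cell cannot be told apart.

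Cacna2d1 (ENSMUSG00000040118, chromosome 5, 15934691 to 16374511, plus strand) is the alpha2delta-1 gene and the target of gabapentin. It was the lowest receptor by mean FPKM, at 3.71, 4.28, 3.58 and 2.87 FPKM with the TSP-4 plasmid and 3.54, 4.18, 3.32 and 2.84 FPKM with the empty plasmid. In all 4 letters the TSP-4 plasmid library was the higher, by 0.01 to 0.09 on the log2 CPM scale. Its log2 fold change was 0.05 (95% interval -0.27 to 0.38), which allows ratios from 0.828 to 1.3.

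Ordered by mean FPKM in the empty plasmid libraries, the members ran Thbs1, Lrp1, Cd47, Thbs2, Cd36, Cacna2d1, Thbs3, Comp and Thbs4. The ranges over libraries overlapped between Cd47 and Thbs2, between Thbs2 and Cd36 and between Comp and Thbs4. With the TSP-4 plasmid Thbs4 moved to the place after Thbs1, the others kept their order, and Cd36 also overlapped Cacna2d1. The FPKM divide by all exonic bases of a gene, so a gene whose cells use short transcripts is set too low. These are 12416 for Cacna2d1, 6276 for Cd47, 17717 for Lrp1 and 3590 for Cd36. The principal transcripts have 3933, 1316, 14888 and 3399 bases in the same order of genes. The order of levels holds for the lengths used, and other lengths were not tested.

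Because the letters pair the libraries across all genes, they were also taken as a block in the fit. For the 8 members other than Thbs4 the intervals narrowed, and the estimate that moved most was that of Thbs2, from 0.22 to 0.31 on the log2 scale. The 95% interval of the ratio of the TSP-4 plasmid to the empty plasmid was then 0.951 to 1.05 for Thbs1 and 0.970 to 1.07 for Lrp1. It was 0.952 to 1.07 for Cd47 and 0.964 to 1.11 for Cacna2d1. For Cd36 it was 0.723 to 1.22 and for Thbs3 0.961 to 1.46. Thbs2 stayed wide, at 0.729 to 2.11. Comp was the only one of the 8 whose interval left out 0, with a log2 fold change of 0.76 (95% interval 0.09 to 1.44). Its adjusted p by edgeR with the block was 0.554, so it did not pass, and 8.12% of all genes had a p under 0.05 in that fit.

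**Figure D3:**
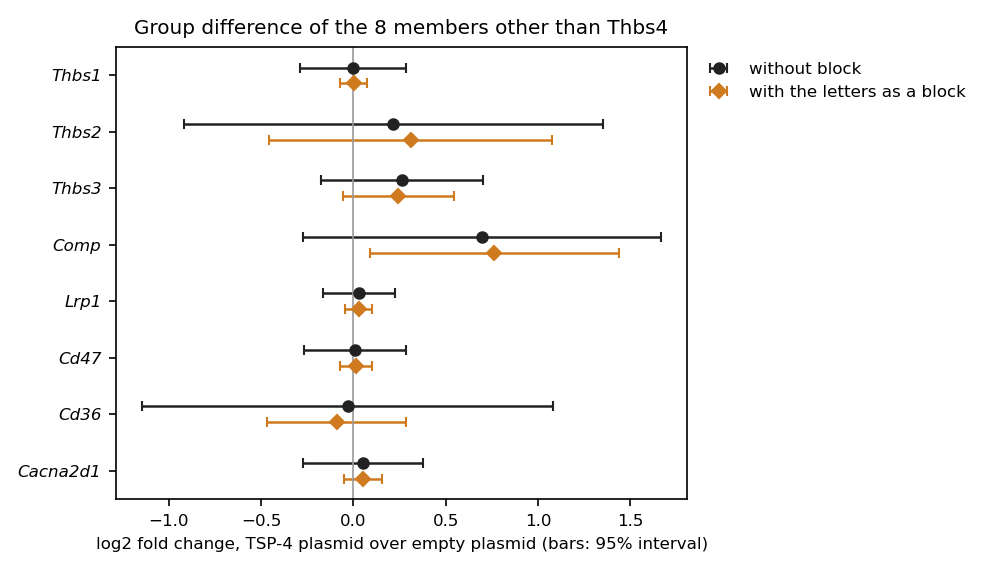
Log2 fold change of the TSP-4 plasmid over the empty plasmid (horizontal axis) for the 8 members other than Thbs4 (vertical axis), with 95% intervals, in edgeR's fit without a block (circles) and with the letters as a block (diamonds). The blocked intervals are narrower, and that of Comp, from 0.09 to 1.44, is the only one that leaves out 0.

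The spread of several members followed the letters. An F test of the letter terms by edgeR, with the plasmid in the model, called 4132 of 14723 genes, or 28.1%, and among the 9321 genes of at least 10 CPM 33.4%. It called 5 of the 9 members, 1 of 5 thrombospondins and 4 of 4 receptors. The 7 members of at least 10 CPM include all 5. Thbs1 had the smallest adjusted p (3.78e-05) over a span of 1.33-fold from letter D to letter C, with at most 0.05 on the log2 scale between plasmids within a letter. Cd47 spanned 1.35-fold from A to B (adjusted p = 0.000149) and Cacna2d1 1.49-fold from D to B (adjusted p = 0.00023). Lrp1 spanned 1.23-fold from D to B (adjusted p = 0.00193) and Cd36 3.54-fold from A to C (adjusted p = 0.00856). The median span of all genes tested was 0.30 on the log2 scale, close to that of Lrp1 at 0.30.

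Thbs2 had a wide span of 2.98-fold from A to B but also a gap of 1.05 (log2) between the plasmids of letter A, and its adjusted p by edgeR's F test was 0.118. Thbs3 (0.109) and Comp (0.192) did not pass either, and Thbs4 (0.148) joins counts of 2 to 11 with counts from the plasmid. Some of these calls rest on 1 letter or library. With both libraries of letter A left out, the edgeR adjusted p was 0.141 for Cd36 and 0.296 for Cd47, and that of Thbs2 became 0.0125. Without TSP-4 plasmid library A alone it was 0.0871 for Cd36 and 0.00954 for Thbs2, and without empty plasmid library A 0.012 for Thbs2. With letter D left out Lrp1 had 0.1002. Thbs1 and Cacna2d1 passed in every alternative that was run.

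The members followed different patterns over the letters. Cacna2d1 and Lrp1 moved together most closely, with a Pearson's r of 0.987 over the 8 libraries, both highest in B and lowest in D, and each was among the 3 genes most like the other. Their nearest other genes were Mmp23 (0.988) and Ephb2 (0.986) for Cacna2d1, and Ephb2 (0.989) and Mrc2 (0.983) for Lrp1. The summed fibroblast markers were also highest in B and lowest in D in both groups. In libraries A to D they stood at 13611, 13992, 12738 and 9169 CPM with the TSP-4 plasmid. With the empty plasmid they stood at 11671, 14332, 10683 and 9014 CPM. Not every gene of that list had this order: Col1a1 was highest in A with the TSP-4 plasmid, and Dcn was lowest in A in both groups. Cd36 and Cd47 had an r of 0.879, while Cd36 had only 0.142 with Cacna2d1 and 0.268 with Lrp1. The macrophage sum had an r of 0.879 with Cd47, 0.668 with Thbs1, 0.169 with Lrp1 and 0.0425 with Cacna2d1. Closest to Cd47 were Ccl2 (0.986), Steap2 (0.984) and Rhog (0.979). Thbs1 was most like Rab10 (0.991), Bnip3 (0.981) and Naglu (0.976), and Thbs2 most like Frzb (0.989), Zhx2 (0.987) and Mmp19 (0.984). Thbs3 was nearest to Ndrg2 (0.943) and Comp to Tgm2 (0.949). These values come from 8 points with shared letters and carry no p.

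**Figure D4:**
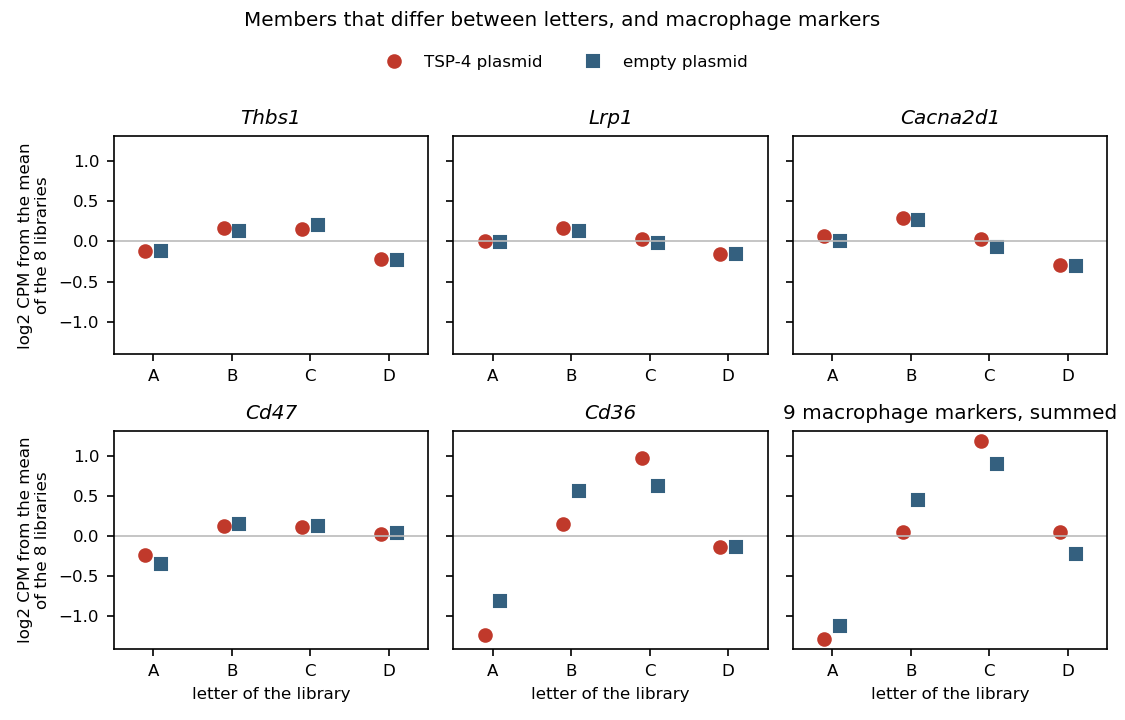
Log2 CPM of the 5 members called between letters, and of the summed macrophage markers, as the difference from the mean of the 8 libraries (vertical axis, the same in all panels) against the letter (horizontal axis), with circles for the TSP-4 plasmid and squares for the empty plasmid. Cd36 and the macrophage sum are lowest in A and highest in C, and Lrp1 and Cacna2d1 are highest in B and lowest in D.

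The wider pathway was followed through 10 lists with 117 genes, of which 103 passed the expression filter. By edgeR's group test without a block 0 were called higher and 0 lower. In the same fit 0 had an unadjusted p under 0.05, where 1.60% of all genes did. Of the 103, 63 had a log2 fold change above 0, where 49.9% of all genes tested did, and their median was 0.02 beside -0.00 for all genes. Between letters 63 were called, or 61.2%, where 28.1% of all genes tested and 33.4% of those of at least 10 CPM were. By list, the letter test called 12 of 13 integrins and syndecans, 7 of 13 partners and signalling genes, 7 of 9 relatives of the receptors and 1 of 8 calcium channel subunits. It called 8 of 11 LRP1 ligands, 6 of 7 latent TGF-beta genes, 4 of 5 proteases, 3 of 11 ATF6 genes, 1 of 4 glycosylating enzymes and 14 of 22 other genes with type 1 repeats. For every list below, the counts called by group in the fit without a block are 0 in both directions. Medians and counts above 0 are from that fit. With the letters as a block, Adamts12, Prkg1, Itgb3, Tgfb3, Scarb2, Adamtsl4, Tgfb2 and Thsd1 had an unadjusted p under 0.05 by edgeR. These ran from 0.00184 (Adamts12) to 0.0491 (Thsd1), with adjusted p of 0.376 to 0.615, and 8.12% of all genes had such a p. The other genes reported below did not. The lists as a whole were not counted in that fit.

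Of the integrins and syndecans that bind thrombospondins 13 of 13 were tested, 4 above 0, with a median of -0.03. Itgb1, the shared beta subunit, was the highest, at 402 to 466 FPKM with the TSP-4 plasmid and 402 to 439 FPKM with the empty plasmid. In this and the following lists, values with an error are mean ± SD over n = 4 libraries, first for the TSP-4 plasmid and then for the empty one. Itgb3, the beta subunit that pairs with alpha-v, stood at 4.09 ± 0.927 and 4.78 ± 0.584 FPKM (log2 fold change -0.23, 95% interval -0.61 to 0.15), and Itga9 at 6.15 ± 0.830 and 6.54 ± 0.321 FPKM. With the letters as a block the interval of Itgb3 was -0.40 to -0.09 (adjusted p = 0.425 by edgeR).

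Of the partners and signalling genes of CD47, CD36 and LRP1 13 of 14 were tested, 10 above 0, with a median of 0.01. Calr, the calreticulin that joins TSP-1 to LRP1, stood at 377 ± 10.6 and 374 ± 16.6 FPKM, and Lrpap1, the chaperone of LRP1, at 35.8 ± 1.67 and 33.7 ± 2.32 FPKM. Prkg1, the cGMP-dependent kinase of the nitric oxide path that TSP-1 inhibits through CD47, stood at 4.76 ± 0.702 and 4.12 ± 0.581 FPKM (log2 fold change 0.20, 95% interval -0.10 to 0.51). With the block its interval was 0.09 to 0.32 (adjusted p = 0.386 by edgeR). Relatives of the receptors gave 7 of 9 tested above 0 with a median of 0.07, among them Scarb2, a relative of Cd36, at 65.3 ± 9.14 and 60.8 ± 7.98 FPKM and Lrp4 at 0.446 ± 0.106 and 0.357 ± 0.0793 FPKM.

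The calcium channel subunits that pair with alpha2delta were mostly low: 8 of 10 were tested and 2 had a mean of at least 1 FPKM. Their median was 0.18 with 6 above 0. Cacnb3, a beta subunit, was the highest at 21.1 ± 1.04 and 21.6 ± 0.672 FPKM. Cacna1a, a pore-forming subunit, stood at 0.908 ± 0.140 and 0.818 ± 0.0720 FPKM, and Cacna1d at 0.0569 ± 0.0166 and 0.0380 ± 0.0249 FPKM from 4 to 18 counts per library.

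Ligands cleared or bound by LRP1 gave 11 of 12 tested, 5 above 0 and a median of -0.02. Mmp13, a collagenase, stood at 6.53 ± 2.47 and 8.05 ± 0.813 FPKM. Of the latent TGF-beta genes 7 of 7 were tested, 3 above 0, with a median of -0.02. Tgfb2 stood at 17.7 ± 6.46 and 13.6 ± 2.40 FPKM (log2 fold change 0.38, 95% interval -0.20 to 0.96), Tgfb3 at 29.2 ± 5.84 and 26.9 ± 5.01 FPKM, and Ltbp3, a latent TGF-beta binding protein, at 92.1 ± 7.22 and 88.9 ± 8.51 FPKM. With the block the interval of Tgfb2 was 0.03 to 0.65 (adjusted p = 0.578 by edgeR).

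The proteases that cleave thrombospondins gave 5 of 5 tested, 4 above 0 and a median of 0.05, with Mmp14 at 80.2 ± 5.92 and 78.3 ± 4.62 FPKM. Adamts1, which cleaves TSP-1 and TSP-2, stood at 20.3 ± 5.25 and 18.4 ± 3.24 FPKM, and Adamts12, which cleaves COMP, at 2.93 ± 0.705 and 2.45 ± 0.391 FPKM. ATF6, the endoplasmic reticulum stress sensor that TSP-4 is described to bind, and its targets gave 11 of 11 tested, 6 above 0 and a median of 0.00. Of these Pdia3 stood at 272 ± 17.5 and 262 ± 11.0 FPKM and Hyou1 at 39.8 ± 2.21 and 41.1 ± 4.38 FPKM. The enzymes that glycosylate type 1 repeats gave 4 of 4 tested, 1 above 0 and a median of -0.01, with Dpy19l1 at 15.2 ± 1.93 and 16.1 ± 2.88 FPKM and Dpy19l3 at 2.08 ± 0.336 and 1.83 ± 0.159 FPKM.

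Of 28 other genes with type 1 repeats 22 were tested, 17 above 0, with a median of 0.14. Unc5b, a netrin receptor, was the highest at 124 ± 11.5 and 126 ± 19.2 FPKM. Thsd1 stood at 0.512 ± 0.132 and 0.683 ± 0.102 FPKM (log2 fold change -0.42, 95% interval -0.92 to 0.07), and Adamtsl4 at 13.2 ± 1.59 and 12.0 ± 1.24 FPKM. With the block the interval of Thsd1 was -0.86 to -0.00056 (adjusted p = 0.615 by edgeR).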

How the data were processed

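NEBNext Ultra was the library kit per the labels. Tools named in the submitters' processing notes are TopHat2 2.0, HTSeq 0.6.1, Cufflinks 2.1.1 and CASAVA, and the builds are GRCm38.p6 and mm10, with no roles. Strandedness, annotation release and the treatment of reads fitting several genes: not given in the sources used here. The deposited count table holds whole read counts per gene. The authors' deposited FPKM equal count over length and total, times 1 constant per library (0.974 to 1.02), so they carry the same counts. Coordinates and lengths of all 9 members equal GENCODE M21.

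Counts were tested with edgeR 4.0.16 (quasi-likelihood, robust, TMM factors, expression filter at a minimum count of 10) in R 4.3.3, with the plasmid as the only model term and p-values adjusted by Benjamini-Hochberg over 14723 genes at 0.05. The filter kept all 9 members; Comp and Thbs3 are the lowest of them. CPM use TMM factors, and likeness used log2 CPM with a prior count of 2. Alternatives were DESeq2 1.42.0, limma 3.58.1, no TMM factors, no filter, a block and left-out libraries. Members and lists were chosen with earlier results of these data known. The named genes are the members, in each list up to 2 with the smallest p and the 1 with the highest FPKM, and the 3 genes most like each member. Of these, 1 gene is not reported here.

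The letters pair the libraries: deviations from the group means had r of 0.508 to 0.651 for the same letter and -0.57 to 0.323 otherwise (limit 0.1). The pairing comes from the data, not the labels. Counts were simulated with the scatter left after fitting letter and plasmid, and with the letters equal for unchanged genes. In them the group test found 72.8% of genes changed 1.5-fold and 90.4% at 2-fold, with 6.27% of calls false. The letter test found 68.1% and 84.5%, with 12.4% false. For the group test the simulation held no spread between letters. The fit without a block meets such spread here, so its simulated shares are not those to be had in these data. Intervals of the fit without a block include the spread between libraries, and those with the block leave out the spread between letters.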

Additional observations from a re-analysis of the deposited data

Results flagged for a closer look

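Of 74 values examined within a group of 4 libraries, 1 stood apart from the rest, where chance gives about 5%. The total count of TSP-4 plasmid library A was 22530947, against 17123735 to 17681837 in the other 3, and the gap to the nearest took 0.897 of the range. Empty plasmid library A was also the deepest of its group, at 21292609 counts. Without TSP-4 plasmid library A the log2 fold change was 0.04 for Thbs1, 0.25 for Cd36 and 0.66 for Comp, and none of these passed the edgeR test.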

How the results depend on the processing

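Thbs4 was called higher under each of the 21 alternatives of the group comparison, with log2 fold changes of 8.93 (limma on log2(FPKM + 1)) to 13.05, and no other member had an adjusted p under 0.05. DESeq2 with the block gave Thbs3 and Comp no adjusted p, so neither could be called there. Genes called higher numbered 4 with DESeq2 and the replicate block, 2 with limma on log2(FPKM + 0.1), and with the block 2 without letter A and 3 without letter B. Genes called lower numbered 1 with the replicate block, 3 with DESeq2 and the block, and with the block 3 without letter A, 1 without letter B and 1 without letter C. Values near 0 changed sign. Thbs1 was 0.0045 (DESeq2), 0.0014 (voom), 0.0011 (no filter), 0.0056 (either FPKM pseudocount), 0.00076 (replicate block), 0.0053 (DESeq2 with the block), and with the block 0.0046 without letter A, 0.020 without C and 0.00026 without D. Cd47 was -0.0046 without TMM factors and -0.016 with the block without letter A, and Cd36 0.028 with the block without letter B. Leaving out 1 library gave ranges of -0.073 to 0.072 for Thbs1, -0.092 to 0.75 for Thbs2, -0.46 to 0.25 for Cd36, -0.094 to 0.085 for Cd47, -0.041 to 0.16 for Cacna2d1, -0.025 to 0.082 for Lrp1, 0.067 to 0.35 for Thbs3 and 0.40 to 1.07 for Comp. The causes were not tested.

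The letter test called 2700 genes with the DESeq2 likelihood ratio test in place of 4132, and 4 to 6 members over its alternatives. Thbs2 passed with that test (adjusted p = 0.00028) and without letter A (0.0125). Thbs4 passed without a filter (9.01e-08), without letter A (0.0462), without letter B (0.0117), without TSP-4 plasmid library A (0.0442) or B (0.00689), and without empty plasmid library B (0.0014). Cd36 (0.141) and Cd47 (0.296) were lost without letter A, and Lrp1 (0.1002) without letter D. Over single left-out libraries the adjusted p ran from 0.00954 to 0.334 for Thbs2, 0.0014 to 0.705 for Thbs4 and 6.77e-06 to 0.0871 for Cd36. The causes were not tested. The share of Thbs4 in the family was 33.5% to 37.0% with 1 library left out. Comp had 5 to 33 counts per library.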
